A study of Mus musculus with 2 samples.

Results

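The Calb2, Car9 and Nos2 stromal barcodes were 68 of the 926 barcodes that carried a stromal signature without the leukocyte gene Ptprc in tumors of mice grafted with KPCA.FSTKO cells. They made up 7.34% of those stromal barcodes (exact Clopper-Pearson 95% interval 5.75 to 9.22%) and 1.00% of the 6777 barcodes of the library with under 20% mitochondrial transcripts and with over 200 and under 8000 genes. A stromal barcode held at least 0.3% of its transcripts in the collagen genes Col1a1, Col1a2 and Col3a1 and the proteoglycan gene Dcn, and no Ptprc. A member had in addition at least 3 transcripts of Calb2, Nos2, Tnfrsf9 and Car9 together, under 0.1% of Acta2 and Tagln (contractile genes), fewer than 5 transcripts of Postn and Sparcl1 (matrix genes), and fewer than 3 of 8 genes of the mesothelium, the cell layer that lines the peritoneum. The members were therefore chosen by measured values, and the levels of these genes in them are a description and not a result. The other 858 stromal barcodes served as the comparison.

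The study addressed how the activin antagonists follistatin and FSTL3 act on the tumor surroundings in ovarian cancer. KPCA is a mouse ovarian cancer line with altered p53 and raised Ccne1 and Akt2. KPCA.FSTKO cells descend from the clone KPCA.C and lack Fst, the follistatin gene, and KPCA.FSTKO_hFSTL3 is 1 stable clone of these cells that carries a plasmid for human FSTL3. Untreated female C57BL/6J mice aged 12 to 16 weeks were grafted intraperitoneally, and 4 omental tumors per genotype were taken at day 10, pooled, and digested with collagenase for 30 min at 37 °C. Both groups thus shared the host strain and the loss of Fst in the grafted cells. Each genotype gave 1 droplet library, in which a barcode marks a droplet and unique molecular identifiers (UMIs) count captured transcripts, so that conditions could not be tested against each other. The KPCA.FSTKO library held 7582 barcodes and the KPCA.FSTKO_hFSTL3 library 4244, and 12 barcode sequences were found in both. Members had a median of 19864.5 UMIs (2004 to 95364) and other stromal barcodes 15289.5 (500 to 71030). Levels are given as CPM, the UMIs of a gene scaled to 1000000 UMIs of the group. The 95% intervals are exact Poisson intervals for levels and binomial intervals for ratios, and they measure only the counting error of these libraries.

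The genes behind the rule belong to different systems. Car9 encodes a carbonic anhydrase on the cell surface that acidifies the surroundings, and Adm encodes adrenomedullin, a secreted vasoactive peptide. Both are classic targets of the hypoxia-inducible factors, which accumulate when oxygen is scarce and switch on glycolysis, glucose uptake and the angiogenic factor Vegfa. Nos2 encodes the inducible nitric oxide synthase, Tnfrsf9 the costimulatory receptor 4-1BB, best known from activated T cells, and Calb2 the calcium-binding protein calretinin, used in pathology as a mesothelial marker.

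On the mouse build GRCm38, Car9 lies at chr4:43506966-43513729 on the plus strand, Adm at chr7:110627661-110629820 on the plus strand, Calb2 at chr8:110137502-110168210 on the minus strand, Nos2 at chr11:78920787-78960254 on the plus strand and Tnfrsf9 at chr4:150914562-150946102 on the plus strand. The sequence around the RefSeq start of Car9 is shown because Car9 carried most of the selection and hypoxia response genes were at a higher level in members. It was read 5′ to 3′ on the plus strand at chr4:43506996-43507025 from RefSeq promoters of GRCm38.p6, with a match to ACGTG, the core letters bound by hypoxia-inducible factors, in capitals. The match lies on the opposite strand and so reads CACGT, and its first base lies 18 bases before the RefSeq start. The gene model of the positions above begins further upstream, so that this stretch lies inside its span.
Car9: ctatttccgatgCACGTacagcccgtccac
Windows of 250 bases before to 50 bases after a start were searched for ACGTG on either strand. Among Calb2, Nos2, Tnfrsf9, Car9 and the 5 hypoxia response genes with the largest ratio in members (Adm, Ero1l, Car12, Ndrg1 and Lox), 4 of 9 genes could be searched, at 5 starts. Car9 had the only match, and the windows of Adm, Car12 and both starts of Tnfrsf9 held none. Of all 32851 windows of this length, 19.6% held the letters. A match is a description and not a measured site.

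Car9 carried most of the selection. It had a UMI in 55 of the 68 members, with a lowest value of 0, a median of 4 and a highest of 18 UMIs. Tnfrsf9 was found in 35 members (0, 1 and 16 UMIs), Calb2 in 18 (0, 0 and 30) and Nos2 in 9 (0, 0 and 16). The name Calb2, Car9 and Nos2 stromal cells thus holds in full for few of them. Of the 68 members, 30 carried only 1 of the 4 genes, 29 carried 2 genes, 7 carried 3 and 2 carried all 4. Of these 2, one had 30 Calb2, 3 Nos2, 1 Tnfrsf9 and 6 Car9 UMIs, and the other 9, 3, 1 and 9 UMIs in the same order. Tnfrsf9 and Car9 met in 25 members, Calb2 and Car9 in 12, Calb2 and Tnfrsf9 in 9, Nos2 and Car9 in 8, and Nos2 met Calb2 in 4 members and Tnfrsf9 in 4. Without the Car9 transcripts 37 members would have had fewer than 3 UMIs. Calb2 was concentrated, and 5 members held 75.6% of its 131 UMIs. Nos2 was likewise high in few members, with 16, 11, 9 and 8 UMIs in 4 of them and 3 or fewer in the other 5.

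**Figure D1:**
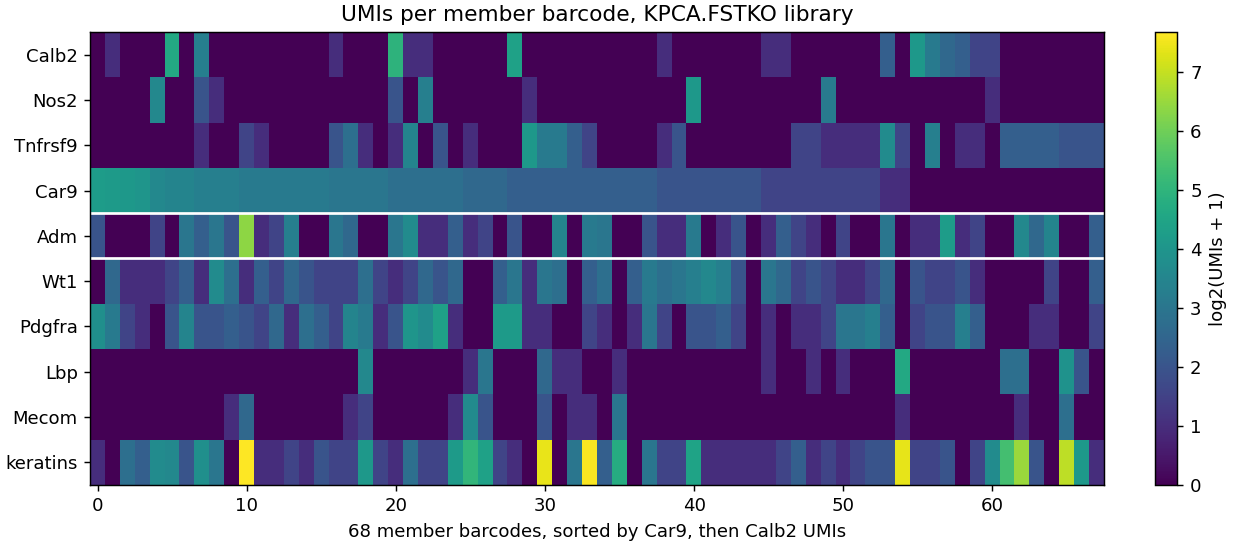
UMIs of Calb2, Nos2, Tnfrsf9, Car9, Adm, Wt1, Pdgfra, Lbp, Mecom and the keratins Krt7, Krt8, Krt18 and Krt19 together in each of the 68 members (columns, sorted by Car9 and then Calb2), as log2(UMIs + 1). The first 4 rows were used to choose the members, and keratin-rich members are seen as bright cells in the last row.

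Each of the 4 genes was also measured in members chosen by the other 3, which leaves that gene out of the sum. The 4 genes had been named together as markers from these data. The values below therefore describe that set and do not test it. Calb2 stood at 70.0 CPM (56.9 to 85.1) in the 61 barcodes so chosen and at 14.1 CPM (12.2 to 16.2) in the other stromal barcodes. Nos2 stood at 33.3 CPM (24.9 to 43.7) in 67 barcodes against 3.49 (2.57 to 4.62). Tnfrsf9 stood at 75.6 CPM (61.1 to 92.5) in 54 barcodes against 13.8, and Car9 at 140.1 CPM (113.6 to 170.9) in 31 barcodes against 42.4 (39.1 to 45.8). The log2 ratios were 2.31 for Calb2, 3.25 for Nos2, 2.45 for Tnfrsf9 and 1.73 for Car9. Nos2 rested on few barcodes, 8 of the 67, and 39 of its 48 UMIs in the others came from 1 barcode.

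The 4 genes were not particular to the members. Calb2 reached 55.7 CPM in the 124 stromal barcodes with contractile genes and 15.04 CPM in the 149 with Postn or Sparcl1. No Calb2 UMI was found in the 72 barcodes with mesothelial genes, which for a count of 0 allows a level of up to 1.86 CPM (3 UMIs of the group's total). Car9 reached 82.9 CPM in those mesothelial barcodes, of which 37.5% had a UMI, against 206.9 CPM in the members and 6.43 CPM in 560 marker-low stromal barcodes. Those have none of the contractile, Postn, Sparcl1 or mesothelial genes past the limits and under 3 UMIs of the 4 rule genes, so that their low Car9 is set by the rule. Nos2 was higher in a macrophage reference (805 barcodes with abundant macrophage transcripts) than in the members, at 150.2 and 33.8 CPM. Tnfrsf9 stood at 82.4 CPM in the members, 58.5 in the macrophage reference and 18.5 in a reference of 1974 keratin-rich barcodes. Of the 120 stromal barcodes with at least 3 UMIs of the 4 genes, 52 were kept out by the limits on contractile (22), Postn and Sparcl1 (21) or mesothelial genes (13), some by more than 1 limit.

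**Figure D2:**
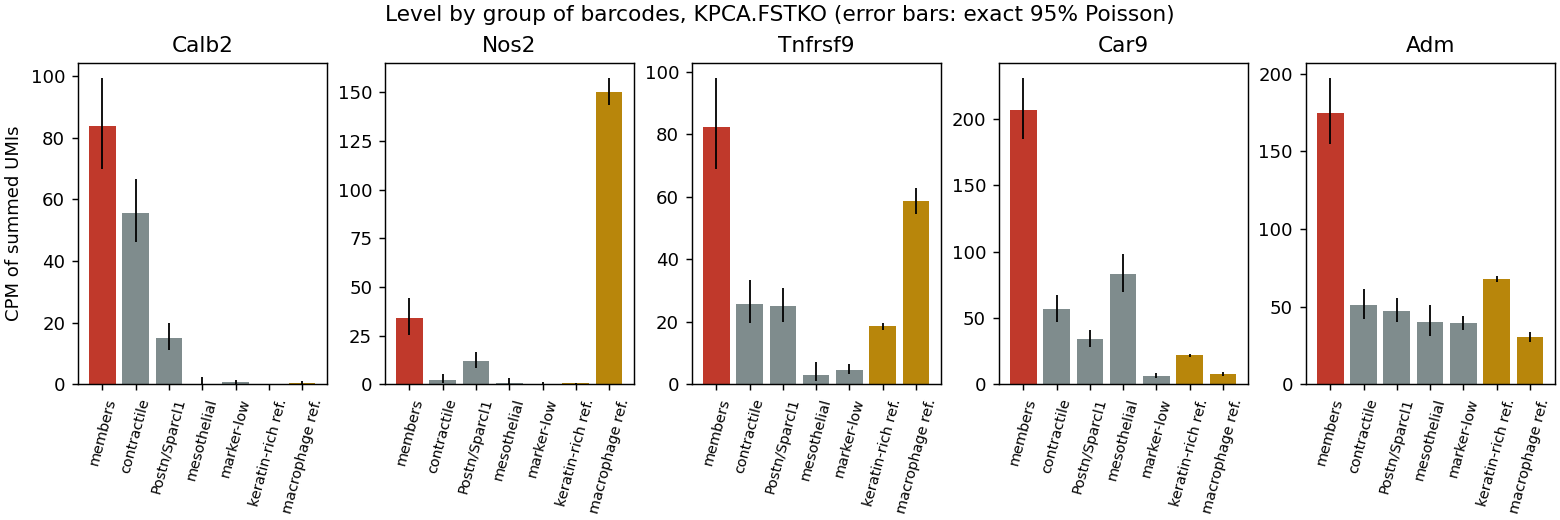
CPM of Calb2, Nos2, Tnfrsf9, Car9 and Adm in the members, 4 other kinds of stromal barcodes and the keratin-rich and macrophage references of the KPCA.FSTKO library, with exact Poisson 95% intervals. Nos2 is highest in the macrophage reference. Adm is not part of the rule, but it had been named with the other 4 as a marker from these data.

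The stromal identity of the members was checked with genes outside the rule. Wt1, a transcription factor of mesothelium and peritoneal stroma, had a UMI in 55 of 68 members, and Pdgfra, the growth factor receptor that marks fibroblasts, in 53. Either gene was found in 57 members (83.8%) and in 362 of the 858 others (42.2%). Among those others, 71 of the 72 barcodes with mesothelial genes had either gene (98.6%). Wt1 was found in 0.507% and 0.994% of the deeper keratin-rich reference (median 32649 UMIs) and of the macrophage reference (median 14034 UMIs). Keratins, the filament proteins of epithelial and mesothelial cells, made up at least 0.1% of UMIs in 10 members (14.7%) and in 288 others (33.6%). The median keratin share was 0.0163% in members (0 to 0.377%) and 0.0451% in others (0 to 0.850%). The fibroblast list, which holds Pdgfra, summed to 1039 CPM in members and 1187 in others. Of its 12 tested genes 3, Pdgfra among them, had a log2 ratio above 0, and the median was -0.56. The list for cancer cells summed to 1199 CPM in members, 1040 in others and 4930 in the keratin-rich reference. Of its 8 tested genes 6 had a log2 ratio above 0, with Lcn2 at 1.98, the cadherin gene Cdh1 at 0.67 and Krt7 at 0.62. Epcam, Cldn7 and Sox17 had no UMI in members, and 7, 1 and 3 UMIs in the 858 others. The other stromal barcodes therefore differed from the members in more than the 4 genes, and every comparison below was repeated after restricting both sides to barcodes with under 0.1% keratins and at least 1 UMI of Wt1 or Pdgfra. This alternative was chosen after seeing the data and left 53 members and 314 others.

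The 15 members outside this restriction held less of the stromal genes. Their median collagen and Dcn share was 0.447% against 1.97% in the 53, and their median keratin share 0.143% against 0.0117%. Lbp, which encodes the lipopolysaccharide-binding protein, stood at 132.3 CPM against 14.3, and Mecom, which encodes a transcription factor, at 77.8 CPM against 4.75. Calb2 stood at 3.89 CPM in the 15 and at 122.6 in the 53, while Nos2 was at 33.1 and 34.2 CPM. Lbp and Mecom also stood at 415.1 and 223.8 CPM in the 560 marker-low stromal barcodes. The part of keratin-rich cells in these values was not tested. Scrublet, a doublet caller, marked 1 of the 68 members and 90 of the 6777 barcodes, and no barcode was removed for it.

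**Figure D3:**
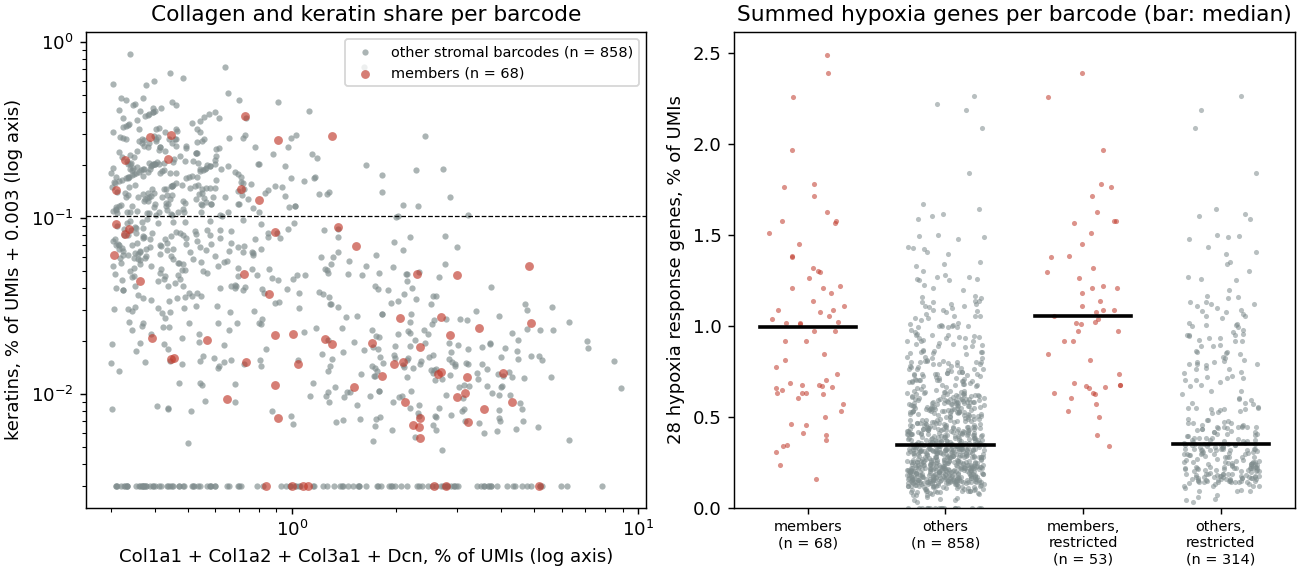
Left, the share of UMIs in collagen genes and Dcn (log axis) against the keratin share plus 0.003 (log axis) for 68 members and 858 other stromal barcodes, with a dashed line at a keratin share of 0.1%. Right, the summed share of the 28 hypoxia response genes per barcode with medians as bars, 0.992% in members and 0.346% in others, and 1.05% and 0.348% after the restriction.

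Genes were compared by the ratio of their CPM over all members to that over all other stromal barcodes, for 10065 genes with at least 100 UMIs in the groups together. Counting a gene as higher or lower past a ratio of 2, 184 genes were higher in members (1.83%) and 750 were lower (7.45%), and the median log2 ratio was -0.20. TMM scaling, which sets the bulk of genes equal, added 0.15 to every log2 ratio and gave 266 higher and 560 lower, and a ratio or median between -0.15 and 0 turns positive under it. In the restricted comparison 7645 genes were tested, 102 were higher (1.33%) and 525 lower (6.87%), with the same median. The 75 genes higher in both made up 40.8% of the first list and 73.5% of the second, and the 255 lower in both 34.0% and 48.6%. The shares of 1.83% and 7.45%, and of 1.33% and 6.87% restricted, are the background for the counts of list genes below. 

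The hypoxia response list held 28 genes, with Adm and without Car9. All were tested, 11 were higher and none lower, where 1.83% of all genes were higher and 7.45% lower. Car9, itself a hypoxia target, carried most of the selection, and Adm had been named as a marker from these data. The count therefore describes the chosen barcodes and is not an independent result. Of the 28 genes 27 had a log2 ratio above 0, and the median was 0.87 against -0.20 over all genes. After the restriction 14 were higher, none was lower and the median was 0.98. Ero1l, an oxidase for protein folding, had 0, 12 and 151 UMIs in the lowest, median and highest member and a median of 1 UMI in the others, and its log2 ratio was 1.73 (1.65 to 1.81). Ndrg1, a stress-responsive gene, had 0, 19.5 and 167 UMIs per member against a median of 1, with a log2 ratio of 1.56 (1.48 to 1.63). The mitochondrial gene Fam162a had 1, 20 and 172 UMIs against a median of 2, with a log2 ratio of 1.36 (1.28 to 1.43). Members were mostly above the median of the others in these 3 genes, and the ranges overlapped widely. Vegfa (log2 ratio 1.20), the mTOR inhibitor Ddit4 (1.09), the collagen cross-linking enzyme Lox (1.46), the glycoprotein hormone Stc2 (1.45), the adenylate kinase Ak4 (1.45), the lipid-droplet gene Hilpda (1.01) and Car12 (1.70), a second surface carbonic anhydrase, were the others past a ratio of 2 besides Adm. Lox was at 0.79 after the restriction and no longer past that ratio, while the mitophagy receptor Bnip3 was at 0.94 before and 1.18 after it. Hilpda was at 0.90 without the member with most of its UMIs. Bhlhe40, a transcriptional repressor, was the exception, at -0.22 (-0.39 to -0.06), and at -0.07 (-0.30 to 0.16) after the restriction.

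Summed over the 28 genes, the share per barcode had a lowest value of 0.156%, a median of 0.992% and a highest of 2.49% in members and 0, 0.346 and 2.26% in others. The others at the top of their range reached the level of the members. The 13 members without a Car9 UMI had a median of 0.645% (0.235 to 1.97%) and the 55 with Car9 1.01% (0.156 to 2.49%). Both medians were above that of the others, and the lowest value of each set was below it. Of the 13 members without Car9, 8 had a UMI of Wt1 or Pdgfra. By the gene they carried, the summed level was 17399 CPM in members with Nos2, 12051 with Calb2, 9749 with Car9 and 7728 with Tnfrsf9. These subsets share barcodes, and those with Nos2 were 9.

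Glycolysis genes were also above the other stromal barcodes, by smaller ratios, where 1.83% of all genes were past a ratio of 2 as higher. Hypoxia-inducible factors switch on glycolysis too, so the selection through Car9 limits these values in the same way. All 17 tested were above a log2 ratio of 0, with a median of 0.65, and 3 were past a ratio of 2, namely the glucose transporter Slc2a1 (1.33, 1.19 to 1.47), Pfkfb3 (1.17), which makes an activator of glycolysis, and the phosphofructokinase Pfkp (1.03). Without the member with most UMIs of each, Pfkfb3 and Pfkp were at 0.98 and 0.92. The restricted median was 0.77, all 16 genes tested were above 0, and Pgk1 at 1.01 joined Slc2a1 (1.09) and Pfkfb3 (1.04) past the ratio of 2, where Pfkp (0.82) was not. Gapdh had a median of 47.5 UMIs per member (1 to 565) and of 14 per other barcode, with a log2 ratio of 0.59. The glycolysis list was not particular to the members. It summed to 11449 CPM in members, 7457 in others, 12422 in the keratin-rich reference and 9909 in the macrophage reference.

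**Figure D4:**
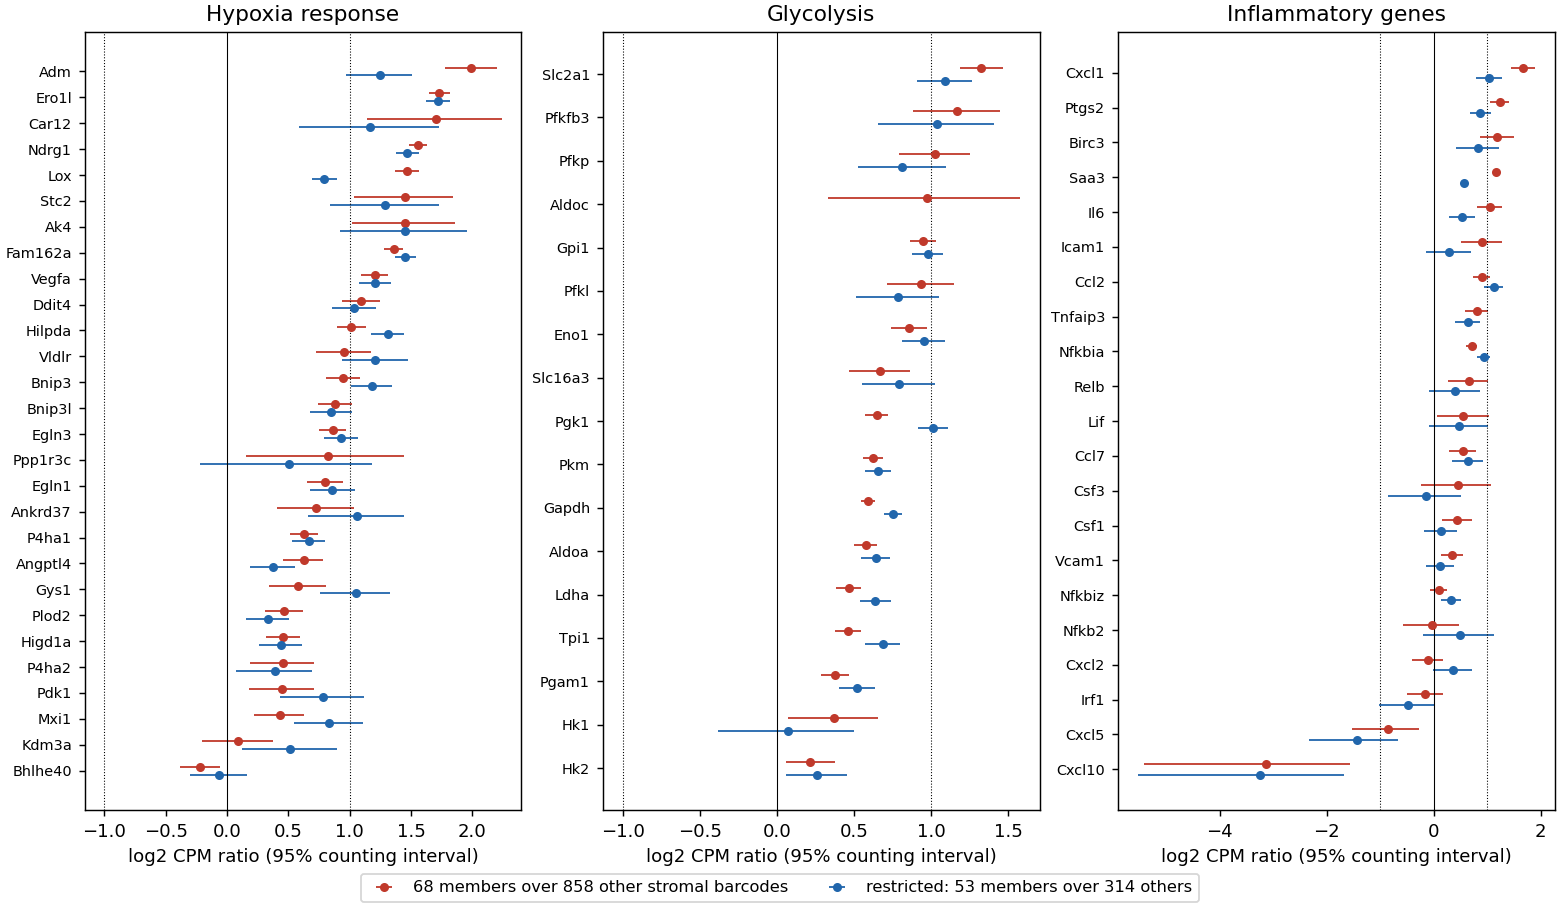
Log2 CPM ratio with 95% counting intervals of hypoxia response, glycolysis and inflammatory genes, for 68 members over 858 others (red) and for the restricted comparison (blue), with dotted lines at a ratio of 2 either way. The hypoxia and glycolysis genes lie to the right of 0 in both comparisons except Bhlhe40, and the inflammatory genes scatter on both sides.

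Adm was not part of the rule, but it had been named with the 4 rule genes as a marker from these data. Its level is therefore a description and not an independent check. Adm was found in 44 of 68 members (64.7%) and in 188 of 858 others (21.9%). It stood at 174.9 CPM in members against 44.1 in others, a log2 ratio of 1.99 (1.78 to 2.20). One keratin-rich member held 81 of its 274 UMIs, the log2 ratio was 1.57 without that barcode and 1.24 (0.97 to 1.51) in the restricted comparison. At 67.9 CPM the keratin-rich reference lay above the 4 other kinds of stromal barcodes, at 39.5 to 50.7 CPM, and below the members. Of 4 tested genes of its receptors 2 were lower. Calcrl, the receptor subunit, had a log2 ratio of -2.14, on 6 UMIs in members, and Ramp1, which pairs with it, had -1.42 (-2.22 to -0.72). Of the other 2, Ramp2 was at -0.55 and the scavenging receptor Ackr3 at 0.72.

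Lists around the other marker genes were mixed. Of 8 tested genes of nitric oxide and arginine metabolism 1 was higher and 1 lower, with a median of -0.07. Slc7a2, an arginine transporter, had a log2 ratio of 1.10 (0.54 after the restriction, 0.97 without the member with most UMIs), and Ass1, which regenerates arginine, had -1.05 on 8 UMIs. Arg1, which competes for arginine, was at -0.44 (-1.07 to 0.14). Among 7 tested ligand and receptor genes of the tumor necrosis factor family, listed beside Tnfrsf9, none was past the ratio, with a median of -0.12. Tnfsf9, the ligand of Tnfrsf9, was at 0.55 (0.13 to 0.96) and at 1.40 (0.87 to 1.92) after the restriction. Restricted, 3 of 6 tested genes of this list were past the ratio, with Tnfsf9 as higher. Tnfrsf12a (-1.23), a receptor of the cytokine TWEAK, and Tnfrsf11b (-1.36), a decoy receptor, were lower. Of 8 tested carbonic anhydrases and acid transporters Car12 alone was higher, with a median of 0.11, and the lactate exporter Slc16a3 was at 0.67 (0.47 to 0.86).

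Inflammatory genes were mixed. Of 31 listed 21 were tested, 5 were higher and 1 lower, with a median of 0.56. Over all genes 1.83% were higher and 7.45% lower, with a median of -0.20. Saa3, an acute-phase protein, had a median of 10 UMIs per member (0 to 259) and of 0 per other barcode (up to 479), and its log2 ratio was 1.17 (1.12 to 1.23). Cxcl1, a chemoattractant for neutrophils, was at 1.67 (1.44 to 1.89), the prostaglandin synthase Ptgs2 at 1.23, the apoptosis inhibitor Birc3 at 1.19 and the cytokine Il6 at 1.05. Without the member with most UMIs of each, Birc3 was at 0.95 and Il6 at 0.86. Cxcl10, an interferon-induced chemokine, was at -3.13 (-5.42 to -1.57) on 3 UMIs, all in 1 member. Restricted, 2 genes were higher, Cxcl1 (1.04) and the monocyte chemoattractant Ccl2 (1.13), and Saa3 (0.57), Ptgs2 (0.87), Birc3 (0.83) and Il6 (0.53) were not past the ratio. The restricted count had Cxcl5 (-1.44) and Cxcl10 (-3.25) as lower. A single member held 151 of the 380 Ccl2 UMIs, and its ratio over all others was 0.90 with and 0.19 without that barcode. The T cell and NK cell list had no UMI in any member.

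Outside the lists, the 15 genes with the largest ratio among those found in at least 25% of members were led by Gipr, the receptor of a gut incretin hormone, at a log2 ratio of 3.13 (2.58 to 3.69), found in 26.5% of members and 2.91% of others. Clic5, a chloride channel family gene, followed at 2.71, Rbp4, the carrier of retinol, at 2.62 and the fatty-acid binding protein Fabp5 at 2.18. Mt2, a metallothionein that binds zinc, had a median of 52 UMIs per member and of 3 per other barcode, was found in 98.5% and 77.6%, and had a log2 ratio of 2.11 (2.06 to 2.16). The small heat shock protein gene Cryab was at 2.14, and at 1.69 without the member that held 730 of its 2585 UMIs. Lcn2, an iron-sequestering acute-phase protein, was at 1.98 (1.77 to 2.19) and the matrix gene Abi3bp at 1.97. The neuronal tubulin Tubb4a was at 1.92, and Gm16685, 4932438H23Rik and 4930447F24Rik, transcripts with no function given here, at 2.49, 2.34 and 2.30. H2-Q6 (2.06) and Ctla2a (1.87) have near-identical relatives, so that counts may be split among them, and Ctla2a was at 0.98 without the member that held 372 of its 781 UMIs. With Adm these are all 15, and all of them kept a log2 ratio above 1 in the restricted comparison, from 1.24 for Adm to 2.51 for Clic5. Gipr had 44 UMIs in the restricted members and 49 in the restricted others, too few to be tested there. Ctla2a had 769 UMIs in the restricted members, and these include the member with 372.

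The 15 genes with the smallest ratio, found in at least 25% of others, included 2 kinds. Mecom (-2.46), Lbp (-2.28), the cadherin gene Cdh6 (-2.15) and Clca3a1 (-3.20), a chloride channel regulator, stood at 223.8, 415.1, 239.0 and 116.7 CPM in the marker-low stromal barcodes and at 180.0, 70.5, 156.4 and 47.0 CPM in the keratin-rich reference, so the comparison group carries them. Fap, the fibroblast activation protein (-2.11), Col8a1, a short-chain collagen (-2.01), Adam12, a metalloprotease (-2.14), and Lpar1, a lysophosphatidic acid receptor (-1.95), are genes of activated fibroblasts. Fap stood at 28.1 CPM in members, 183.9 in barcodes with Postn or Sparcl1 and 2.17 in the keratin-rich reference. Restricted, Fap was at -1.93 (-2.48 to -1.43), Col8a1 at -3.09 and Adam12 at -2.27. The others named were the Wnt inhibitor Dkk2 (-2.90), Megf10 (-2.48), Rasgrf1 (-2.43), Mtcl1 (-2.33), Ncald (-2.28) and Plekha6 (-2.07). The named genes stayed below 0 in the restricted comparison, where Rasgrf1 was at -1.32 with an interval that held 0 (-3.24 to 0.12), and Dkk2 had 1 UMI in the 53 members (-6.27, -11.6 to -3.79).

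Of 25 tested matrix genes outside the rule, 1 was higher (Lox) and 6 were lower, where 1.83% of all genes were higher and 7.45% lower. Their median was -0.23, close to the -0.20 of all genes. The basement membrane collagens Col4a1 and Col4a2 were at -1.21 (-1.35 to -1.07) and -1.40, elastin (Eln) at -2.30, tenascin C (Tnc) at -1.60, the hyaluronan synthase Has2 at -1.39 and Col8a1 as above. Fn1, the fibronectin gene, was at -0.04 and Sparc at 0.10. After the restriction 8 genes were lower, the median was -0.54 and Lox gave way to Mmp3, a stromelysin, at 1.24 (0.93 to 1.55). Mmp3 was at -0.27 over all others, so its direction depended on the comparison group. Since the rule removed barcodes with Postn, Sparcl1, Acta2 or Tagln from the members but kept them in the comparison, the matrix and myofibroblast values are partly set by it. The matrix list summed to 16921 CPM in members, 17230 in all others and 11103 in marker-low barcodes, which fall under the same limits. The myofibroblast list summed to 463, 1363 and 264 CPM, and to 2342 CPM in the restricted others, which kept the removed kinds. Members were thus above marker-low barcodes in both sums. The marker-low barcodes carried less of the stromal signature, so these sums do not compare members with like stroma. Of the 560 marker-low barcodes 413 had neither Wt1 nor Pdgfra, and 41.6% had at least 0.1% keratins, against 14.7% of members. Their median collagen and Dcn share was 0.482%, against 1.30% in members. Against the 560 marker-low barcodes alone the number of genes higher was 365 in place of 184 and that of genes lower 824.

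Growth factor genes were split. Of 23 tested in the list of activin, TGF-beta and growth factor genes 2 were higher and 5 lower, with a median of -0.38. Over all genes 1.83% were higher and 7.45% lower, with a median of -0.20. Ereg, an epidermal growth factor receptor ligand, was at 1.81 (1.55 to 2.07), and Grem1, a secreted inhibitor of bone morphogenetic proteins, at 1.27 (0.86 to 1.66), and at 0.77 without the member that held 21 of its 69 UMIs. Areg, another ligand of that receptor, was at -1.74, Pdgfa at -1.41, Tgfb3 at -1.15, Bmp4 at -1.11 on 5 UMIs (-2.77 to 0.16) and Hgf at -2.09 on 5 UMIs. After the restriction 18 genes were tested, Ereg and Grem1 remained higher at 1.72 and 1.86, and 6 were lower, Tgfb3 (-1.63), Pdgfa (-1.25), Igf1 (-1.42), Hbegf (-1.23), the activin subunit gene Inhbb (-1.14) and Acvr2a. Areg, Bmp4 and Hgf had too few UMIs to be tested there. For the study's own axis, the activin subunit gene Inhba had 0.35 (0.16 to 0.54) over all others, but 1 member held 115 of its 258 UMIs and the log2 ratio was -0.47 without it. Fst was found in 34 of 68 members and in 187 of 858 others, at 101.5 and 58.4 CPM (log2 ratio 0.80, 0.54 to 1.04), in 11.6% of the keratin-rich and in 1.61% of the macrophage reference. After the restriction the Fst log2 ratio was 0.33 (0.07 to 0.58). The contractile stromal barcodes stood above the members, at 227.3 CPM. Fstl3 was at 58.7 and 41.4 CPM (0.51, 0.17 to 0.83) and, after the restriction, at 0.24 (-0.12 to 0.58). Of the activin receptor genes, Acvr2a was at -0.89 (-1.55 to -0.30), and at -1.33 (-2.49 to -0.36) and past the ratio after the restriction, and Acvr2b had 2 UMIs in members and 19 in others. The 3-prime counts of Fst do not check the edit, which may leave the counted end of the transcript in place.

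Stress and cycle lists held few genes past the ratio. None of 12 immediate early and heat shock genes and none of 8 proliferation genes was past a ratio of 2, with medians of 0.47 and 0.14. Among immediate early genes Fos was at 0.51 and Egr1 at 0.43, each with an interval above 0. In the integrated stress response list Ddit3, a transcription factor induced by it, was at 1.35 (1.11 to 1.58) and the other 4 tested genes were between 0.42 and 0.61.

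Markers of other cell types were measured beside these values. The macrophage list was summed to 97.7 CPM in members and 99.3 in others against 18237 in the macrophage reference, no member had over 0.0540% of its UMIs in it, and its members Adgre1 and Fcgr1 had no UMI. Csf1r, the receptor of macrophage colony-stimulating factor, was the exception, found in 45.6% of members and 9.21% of others, at 34.5 (25.9 to 45.0) and 11.5 CPM. Mesothelial barcodes had it at 45.8 CPM and the macrophage reference at 294.0. Csf1r had a log2 ratio of 1.18 (0.67 to 1.68) after the restriction. Of the pericyte list, Rgs5 and Higd1b, which define these vessel-wall cells, had no UMI in members, while Ndufa4l2, a mitochondrial gene of that list that hypoxia also induces, was at 1.66 (1.54 to 1.77). The endothelial genes Pecam1, Cldn5 and Tie1 had no UMI in members, where the endothelial list summed to 13.4 CPM against 26.0 in others. The adipocyte list stood at 312.8 CPM in members and 170.7 in others, all of it in members from Fabp4, a fatty-acid carrier also of other cells, at a log2 ratio of 0.88 (0.73 to 1.02). Its other genes had no UMI in members, and 3 of them, Adipoq, Cidec and Lep, had none in the others either. Mesothelial genes that the rule did not use were mixed, with Pdpn (podoplanin, 1.22) and Slpi (a protease inhibitor, 1.54) higher and Efemp1 (-1.09) lower of 10 tested. Slpi rested on 1 member with 537 of its 836 UMIs and was at 0.08 without it, and Pdpn was at 0.80 after the restriction. No gene of the fibroblast list was higher and 4 of 12 were lower, Pi16, Clec3b (0 UMIs in members), Col14a1 and Dpp4, several of them marks of fibroblasts around vessels. The interval of Dpp4 held 0 (-1.06, -2.40 to 0.03). Myofibroblast genes include those of the rule, and 7 of 8 tested were lower than in all others. Their sum was above that of marker-low barcodes, which carried less of the stromal signature. The erythroid list, lower for 4 of 4 tested genes, took up to 11.7% of the UMIs of a barcode in the comparison group, and the acinar list up to 12.2%, against at most 0.0178% and 0.0360% in members.

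At equal depth, with each barcode thinned to 2000 UMIs, which left out 151 of the 858 others and none of the members, Car9 was found in 36.8% of members (25.4 to 49.3%) and in 3.39% of others, Calb2 in 10.3% (4.24 to 20.1%) and 1.27%, Nos2 in 8.82% (3.31 to 18.2%) and 0.141%, and Tnfrsf9 in 13.2% (6.23 to 23.6%) and 1.41%. Unthinned, the shares were 80.9 and 11.5% for Car9, 26.5 and 2.10% for Calb2, 13.2 and 0.816% for Nos2, and 51.5 and 9.44% for Tnfrsf9. Ero1l was found in 64.7% of members (52.2 to 75.9%) and 32.0% of others (28.5 to 35.5%), against 97.1 and 63.3% unthinned. Ndrg1 was found in 60.3% (47.7 to 72.0%) and 35.1% (31.6 to 38.7%), against 98.5 and 62.6% unthinned. Adm was found in 19.1% (10.6 to 30.5%) and 9.05% (7.04 to 11.4%), where the intervals overlapped, and in 10.6% of the keratin-rich and 3.99% of the macrophage reference. Fst was found in 11.8% of members and 9.05% of others, a difference within the counting intervals, and in 15.1% of restricted members and 15.2% of restricted others. Inhba was found in 11.8% of members and 13.9% of others, against 51.5 and 46.3% unthinned, so its order turned, and Krt8 in 25% and 30.6%. The thinned share of Nos2 in others was 1 barcode. For Wt1 the thinned shares were 30.9% of members (20.2 to 43.3%) and 18.1% of others (15.3 to 21.1%), where the intervals overlapped. For Pdgfra they were 30.9% (20.2 to 43.3%) and 15.7% (13.1 to 18.6%), where the intervals did not.

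In the KPCA.FSTKO_hFSTL3 library the same rule found 4 members among 224 stromal barcodes, 1.79% (0.489 to 4.51%), and 4041 barcodes passed the filter. The stromal barcodes there were shallower, with a median of 4032 UMIs against 15832.5, and a limit of 3 UMIs depends on depth. With a limit of 0.02% of UMIs in its place, 12 of 224 (5.36%, 2.80 to 9.17%) were members there and 71 of 926 (7.67%, 6.04 to 9.57%) in KPCA.FSTKO, and these intervals overlapped, where those at 3 UMIs did not. Neither difference has a replicate. Among barcodes with low keratin and Wt1 or Pdgfra, where the others had a median of 23786 UMIs in that library and 17566.5 in KPCA.FSTKO, 2 of 57 were members (3.51%, 0.428 to 12.1%) against 53 of 367 (14.4%, 11.01 to 18.5%), and these intervals overlapped. The members of that library were unlike each other. One had 4 Calb2, 1 Tnfrsf9 and 2 Car9 UMIs with 145 keratin UMIs. Another had 16 Tnfrsf9 UMIs, 99 keratin UMIs and none of Wt1, Pdgfra, Col1a1 or Dcn. The remaining 2 had 4 and 17 Car9 UMIs, 2 and 2 Tnfrsf9 UMIs, and both Wt1 and Pdgfra. None had a Nos2 UMI. Adm was at 40.0 CPM (13.0 to 93.4) in these 4 and at 18.6 CPM (13.8 to 24.6) in the other 220. Genotype and library cannot be told apart.

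At the limits of the rule, 15 members had exactly 3 UMIs of the 4 genes and 20 otherwise matching barcodes had 2. Adm stood at 57.7 CPM in the former and 97.9 in the latter, and the hypoxia genes together at 6320 and 5515 CPM. With 9 members under 0.4% collagen and Dcn and 11 otherwise matching barcodes between 0.2% and 0.3%, Adm stood at 72.9 and 91.7 CPM, and Wt1 or Pdgfra was found in 3 of each. The hypoxia genes together stood at 4443 CPM in these members and at 5324 CPM in the barcodes just outside. At both limits Adm was at a higher level just outside than just inside. The hypoxia genes were higher just inside the UMI limit and higher just outside the collagen and Dcn limit.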

How the data were processed

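Cells of 4 pooled tumors per genotype went through 10x 3-prime chemistry into 1 library, and reads were counted by the authors on mm10. Cell Ranger is named as version 3.1.0 by the methods and the submitters' processing notes and as 7.2.0 by the file headers. Raw UMI counts per gene and barcode were deposited. The deposited counts are not normalized. The cell numbers in the methods, 7582 and 4244, equal the deposited barcodes, and the filters of the methods leave 6777 and 4041. Counting was by strand in this kit. The human FSTL3 transgene was not analysed here.

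Gates were applied to raw counts with pandas 2.3.3 and numpy 2.4.6 under Python 3.11.15, intervals came from scipy 1.17.1 and plots from matplotlib 3.10.9. UMIs were summed per group, and genes with at least 100 UMIs were called higher or lower past a CPM ratio of 2, a rule of size and not a test. The floor for a gene without UMIs was 3 UMIs. Shares were compared after thinning to 2000 UMIs. Scrublet in scanpy 1.11.5 scored doublets, and none were removed. TMM scaling came from edgeR 4.0.16 in R 4.3.3, used for scaling alone. The ratio step was tested on simulated counts. Alternatives changed the limits of the rule, the comparison group, the scaling, the UMI minimum and the ratio, 1 at a time. The named genes are the rule's genes and Adm, the genes of the pathway lists, the 15 largest and 15 smallest ratios among genes found in at least 25% of members or others, and Fst, Fstl3, Inhba, Acvr2a and Acvr2b. Of the 15 smallest, 1 is not reported here. Genes of the cell type marker lists, and Epcam, Lbp and Mecom as labels of subsets, are named beyond that. Members, lists and alternatives were chosen with earlier results of these data known.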

Additional observations from a re-analysis of the deposited data

How the results depend on the processing

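Across 29 alternative settings the Adm log2 ratio, the 1 result followed here that has a direction, stayed above 0. Adm had been named as a marker from these data, so the settings do not test it independently. Counts of members in KPCA.FSTKO (68) went to 43 with at least 5 UMIs of the 4 genes, 31 without Car9 and 40 with a collagen and Dcn limit of 1%. In KPCA.FSTKO_hFSTL3 (4) they went to 14 and 2 with limits of 0.2% and 0.5%, 2 at 1%, 10 with 2 UMIs, 12 with a sum of 0.02% of UMIs, 2 without Car9 and 2 after the keratin, Wt1 and Pdgfra restriction. Genes higher and lower (184 and 750) were 329 and 1170 with the 0.02% limit, 320 and 1225 with the mean CPM over barcodes, 412 and 1779 from 20 UMIs on, 550 and 2039 at a ratio of 1.5, 48 and 265 at a ratio of 3, and 97 and 464 at the 1% limit. Genes higher were 365 against marker-low barcodes and 102 restricted, and genes lower 1303 with 5 UMIs and 1160 without Tnfrsf9. Hypoxia genes higher (11) were 20 and 3 at ratios of 1.5 and 3. Inflammatory genes higher (5) were 10 and 1 at these ratios, 8 at 0.02%, 8 against marker-low barcodes, 2 at 0.5%, 1 at 1% and 2 restricted. The Adm log2 ratio (1.99) was 1.34 at 0.5%, 1.05 at 1%, 1.61 at 0.02%, 1.75 without Car9, 1.43 with Postn and Sparcl1 under 3 UMIs, 1.62 without the 5% of barcodes with most UMIs and 1.24 restricted. The cause was not tested where the setting does not itself change the genes or barcodes counted. TMM scaling moved every log2 ratio by 0.15, to 266 genes higher and 560 lower. The restriction, the 1% limit, a minimum of 5000 UMIs and leaving out the member with most UMIs of a gene were chosen after seeing the data.

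No paired analysis was possible because each genotype has 1 library. Depth limits Nos2 and Calb2, found in few members, and the 4 members of the second library.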
